A study of Mus musculus with 6 samples.

Results

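H3K27ac and H3K4me1 were compared around genes in mouse bone marrow-derived macrophages (BMDMs) treated with lipopolysaccharide (LPS) for 1 h. The comparison used the autosomal peaks of a single library per mark, 4120 H3K27ac peaks and 71661 H3K4me1 peaks, out of the 142059 peaks that the 4 deposited lists of the series hold on all chromosomes. For each of 20807 autosomal protein-coding genes, the peaks of each mark with at least 1 base within 50 kb of the transcription start site (TSS, the 5′ end of the gene) were counted. From these counts alone, 101 genes were classed as rich in both marks, 42 as rich in H3K27ac with little H3K4me1 and 418 as rich in H3K4me1 with no H3K27ac. The counts chose the genes, so the counts of the members are a description. With 1 library per mark there is no replicate error and no test, and every difference below is between single libraries.

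H3K4me1, histone H3 monomethylated at lysine 4, is placed at enhancers by MLL3 and MLL4, and it marks enhancers that are poised as well as those in use. H3K27ac, histone H3 acetylated at lysine 27, is written by p300 and CBP and marks enhancers and promoters that are active. Macrophage enhancers are largely selected during differentiation by lineage factors such as PU.1, and LPS, a bacterial cell wall component sensed by TLR4, brings NF-κB and AP-1 to many of them within the first hour.

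The study searched for LPS-responsive enhancers of macrophages, and profiled histone marks in wild-type C57BL/6 cells by CUT&RUN, in which an antibody directs a nuclease to cut out the chromatin that it binds. Bone marrow of male mice aged 7 to 10 weeks was grown for 6 d with 20% L929-conditioned medium, and the resulting macrophages received LPS or PBS for 1 h. The series holds 6 samples, 1 each for H3K27ac, H3K4me1 and control IgG under either treatment, and the IgG samples entered no comparison below. The number of mice behind each library is not given in the sources used here. Fragment totals estimated from the peak values were 5660000 for LPS H3K27ac, 7000000 for LPS H3K4me1, 7210000 for PBS H3K27ac and 6870000 for PBS H3K4me1. These totals are rough, since they take the narrowest peak as the fragment length and the lowest common background level as genome-wide. The LPS H3K4me1 list was 17.4 times as long as the LPS H3K27ac list. The median summit rested on 17 fragments in LPS H3K4me1 and on 9 in LPS H3K27ac, with lowest summits of 8 and 5 fragments. PBS H3K27ac gave 52 autosomal peaks. The PBS H3K27ac library had the highest estimated total and the fewest peaks, and why the lists differ in length was not tested. A gene without an H3K27ac peak is one near which no peak was called, which does not show that the mark was absent.

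The sequences below show the summit and 100 bases on either side of it for the most significant peak in the windows of leading genes of each class, and they show what kind of place carried each mark. They are given on the plus strand of GRCm38, with matches to AP-1 (TGANTCA), CRE (TGACGTCA), PU.1 (GAGGAAGT), ETS (CCGGAAGT) or the NF-κB consensus on either strand in capitals. These motifs do not overlap each other in the sequences shown. The first 3 were H3K27ac summits near genes rich in both marks, Plekho2 (chr9:65533087-65533287), Gdf3 (chr6:122650541-122650741) and Plin2 (chr4:86689319-86689519), all intergenic and all overlapped by an H3K4me1 peak.
Plekho2: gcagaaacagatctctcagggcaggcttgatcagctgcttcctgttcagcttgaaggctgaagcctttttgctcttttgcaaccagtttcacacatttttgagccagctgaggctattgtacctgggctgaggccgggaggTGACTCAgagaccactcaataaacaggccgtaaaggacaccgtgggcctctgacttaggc
Gdf3: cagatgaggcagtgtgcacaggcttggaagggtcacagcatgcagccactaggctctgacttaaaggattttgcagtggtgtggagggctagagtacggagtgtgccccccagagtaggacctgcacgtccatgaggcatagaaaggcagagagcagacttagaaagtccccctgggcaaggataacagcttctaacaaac
Plin2: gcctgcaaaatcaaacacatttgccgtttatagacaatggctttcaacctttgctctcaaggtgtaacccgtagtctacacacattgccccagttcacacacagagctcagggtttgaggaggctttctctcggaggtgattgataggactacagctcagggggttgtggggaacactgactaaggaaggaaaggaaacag

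The next were H3K27ac summits near genes with little or no H3K4me1, none overlapped by an H3K4me1 peak. In the window of Oasl1 the summit (chr5:114897549-114897749) lay 619 bp from a TSS of Oasl2, in that of Chrm1 (chr19:8712627-8712827) 258 bp from a TSS of Slc3a2, and in that of Muc3 (chr5:137115431-137115631) 676 bp from a TSS of Trim56. In the window of Dlgap1 (chr17:70015837-70016037) it lay in an intron of Dlgap1.
Oasl2: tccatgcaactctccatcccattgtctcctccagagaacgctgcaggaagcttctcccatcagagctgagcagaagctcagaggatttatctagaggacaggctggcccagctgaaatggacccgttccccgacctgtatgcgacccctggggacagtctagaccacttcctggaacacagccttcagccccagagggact
Slc3a2: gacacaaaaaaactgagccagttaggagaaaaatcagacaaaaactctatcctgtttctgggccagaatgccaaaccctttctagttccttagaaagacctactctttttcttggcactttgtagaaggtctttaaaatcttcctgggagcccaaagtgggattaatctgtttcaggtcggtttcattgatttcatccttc
Trim56: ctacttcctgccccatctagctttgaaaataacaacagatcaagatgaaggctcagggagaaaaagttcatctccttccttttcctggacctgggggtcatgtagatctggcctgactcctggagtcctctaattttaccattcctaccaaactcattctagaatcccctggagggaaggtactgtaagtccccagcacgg
Dlgap1: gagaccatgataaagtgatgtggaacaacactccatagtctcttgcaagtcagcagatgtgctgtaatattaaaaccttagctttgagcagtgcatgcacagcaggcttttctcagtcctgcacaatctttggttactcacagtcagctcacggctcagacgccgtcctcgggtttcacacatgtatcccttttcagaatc

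The last 2 were H3K4me1 summits near genes with no H3K27ac peak. That of Tpd52 (chr3:8964774-8964974) lay 826 bp from an annotated TSS of Tpd52 itself and 39.8 kb from the 5′ end of the gene, and that of Tec (chr5:72833412-72833612) lay in an intron of Tec, 35.0 kb from its TSS.
Tpd52: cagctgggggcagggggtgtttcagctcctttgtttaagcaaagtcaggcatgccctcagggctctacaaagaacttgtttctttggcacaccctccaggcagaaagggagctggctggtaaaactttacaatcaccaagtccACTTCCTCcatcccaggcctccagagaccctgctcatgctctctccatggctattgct
Tec: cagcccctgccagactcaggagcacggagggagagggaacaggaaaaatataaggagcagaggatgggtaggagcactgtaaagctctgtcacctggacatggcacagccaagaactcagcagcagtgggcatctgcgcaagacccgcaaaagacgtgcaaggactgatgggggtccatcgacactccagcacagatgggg
One AP-1 letter match was present in the Plekho2 sequence and one PU.1 letter match in the Tpd52 sequence, and the others held none of the 5 motifs.

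Most genes had H3K4me1 nearby, and far fewer had H3K27ac. At least 1 H3K4me1 peak lay within 50 kb of 14931 genes (71.8%), and at least 1 H3K27ac peak within 50 kb of 4918 (23.6%). Few genes had H3K27ac in the window without H3K4me1: 4660 genes (22.4%) had both marks, 10271 (49.4%) H3K4me1 only, 258 (1.24%) H3K27ac only and 5618 (27%) neither. Sharing a window is not overlap. Of the 4120 H3K27ac peaks, 34.1% were overlapped by an H3K4me1 peak and 14.9% had no H3K4me1 summit within 50 kb. The median gene had 3 H3K4me1 peaks and 0 H3K27ac peaks, and the highest counts were 54 and 15. Across the 20807 genes the rank correlation of both counts was 0.41 (Spearman), and over 8244 genes whose windows do not overlap it was 0.39. Neighbouring genes share windows and peaks, so these are descriptions across genes and not across replicates.

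The share of genes with H3K27ac rose with the number of H3K4me1 peaks. It was 4.39% among the 5876 genes with no H3K4me1 peak (95% Wilson interval 3.90 to 4.95, counting error only), 26.1% (24.7 to 27.7) at 4 to 6 peaks, 45.4% (43.2 to 47.5) at 11 to 15 peaks and 65.2% (61.5 to 68.7) at 21 to 30 peaks. Above 30 peaks it was 62.5% (54.4 to 70.0, 144 genes), which overlapped the interval at 21 to 30 peaks. Among genes whose windows do not overlap, the shares ran from 4.35% at 0 peaks to 59.5% at 21 to 30. The mean number of protein-coding TSSs in the window rose as well, from 2.79 at 0 H3K4me1 peaks to 3.83 at 11 to 15. It was lower beyond, 3.07 at 21 to 30 and 2.13 above 30. Whether gene density contributed to the rise in H3K27ac was not tested.

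**Figure D1:**
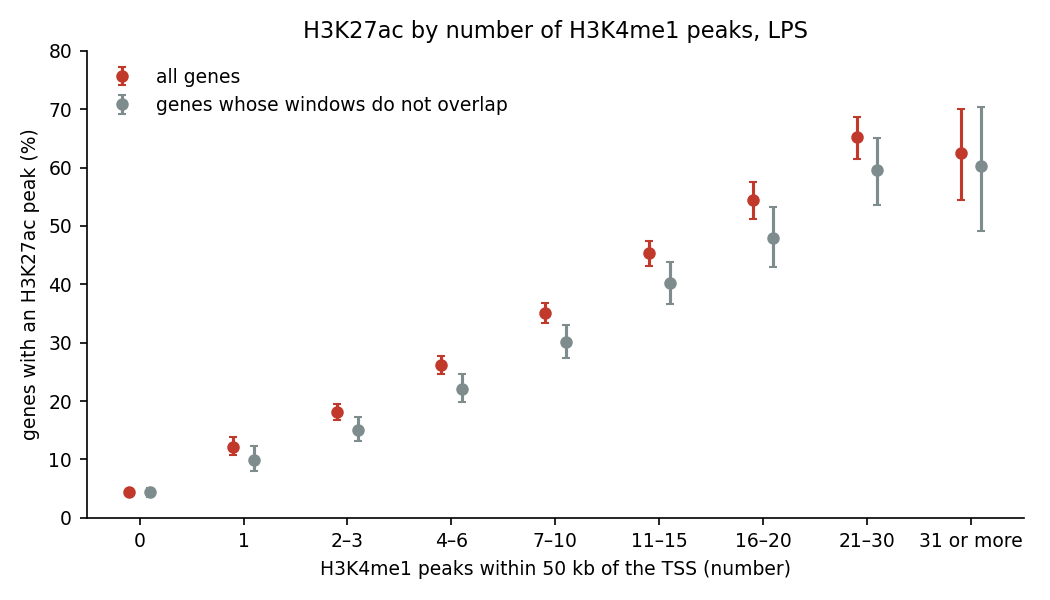
Share of genes with at least 1 H3K27ac peak within 50 kb of the TSS (y axis, percent) by the number of H3K4me1 peaks in the same window (x axis), in the LPS libraries. Red points are all 20807 genes, grey points 8244 genes whose windows do not overlap, and bars are 95% Wilson intervals. The share climbs from 4.39% at 0 peaks to 65.2% at 21 to 30 peaks and does not climb further above 30.

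The 4120 H3K27ac peaks themselves differed in H3K4me1 by where they lay and by their strength. Peaks within 1000 bp of a protein-coding TSS (promoter peaks) were 1265 of 4120, or 30.7% (29.3 to 32.1), and the remaining 2855 were distal. An H3K4me1 peak overlapped 16.1% (14.2 to 18.3) of promoter peaks and 42.1% (40.3 to 43.9) of distal peaks. From promoter summits the nearest H3K4me1 summit was a median 1.39 kb away, with quartiles of 0.493 and 3.27 kb. From distal summits the median was 0.851 kb, but the upper quartile was 25.8 kb. H3K4me1 was missing within 50 kb of the summit for 1.9% (1.28 to 2.81) of promoter peaks and for 20.6% (19.2 to 22.1) of distal peaks.

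Among distal peaks, H3K4me1 went with peak strength. Of the 222 distal peaks in the strongest 10% of the list by −log10 q, 63.5% (57.0 to 69.6) were overlapped by H3K4me1 and 1.35% (0.461 to 3.90) had no H3K4me1 summit within 50 kb. Of the 1573 distal peaks in the weaker 50% of the list, 32.9% (30.7 to 35.3) were overlapped and 29.2% (27 to 31.5) had none within 50 kb. Promoter peaks showed no such gap, with 19.5% (14.5 to 25.7) overlapped in the strongest 10% and 16.8% (13.8 to 20.4) in the weaker 50%.

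**Figure D2:**
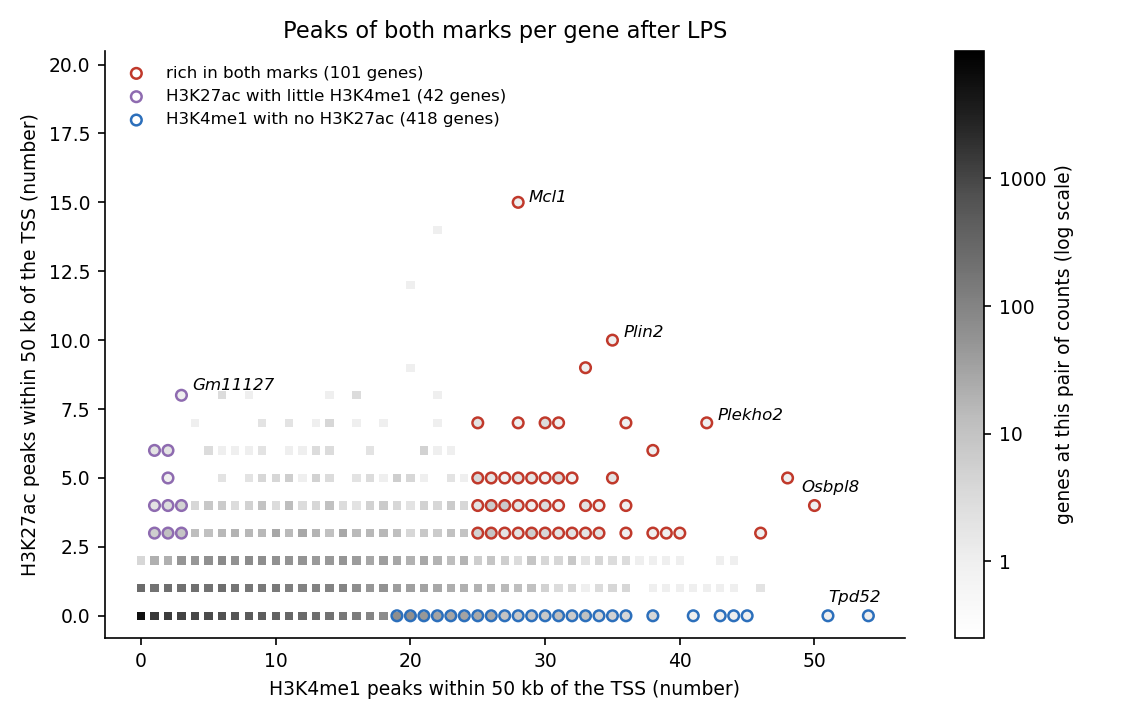
Number of H3K4me1 peaks (x axis) and of H3K27ac peaks (y axis) within 50 kb of the TSS for 20807 genes after LPS, with the number of genes at each pair of counts in grey on a log scale. Circles mark pairs of counts held by the 101 genes rich in both marks (red), the 42 with H3K27ac and little H3K4me1 (purple) and the 418 with H3K4me1 and no H3K27ac (blue).

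Genes rich in both marks were those at or above the 98th percentile of each count, that is with at least 3 H3K27ac and at least 25 H3K4me1 peaks. They were 101 genes (0.485% of all genes), and chaining TSSs within 100 kb left 66 separate loci. These 101 genes made up 15% of the 672 genes with at least 3 H3K27ac peaks and 24.0% of the 420 genes with at least 25 H3K4me1 peaks. H3K4me1 peaks covered a median 16 kb of the 100 kb window and H3K27ac peaks 0.807 kb. The own promoter was taken at the 5′ end of the gene. It carried an H3K27ac peak in 23 genes (22.8%) and an H3K4me1 peak in 53 (52.5%), beside 5.14% and 25% of all genes.

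Plekho2, a pleckstrin homology domain protein, had 7 H3K27ac and 42 H3K4me1 peaks after LPS, and 0 and 19 after PBS, and its locus also held Ankdd1a and Pif1. Gdf3, a ligand of the TGF-β family, had 7 and 36 peaks (0 and 24 after PBS), in a locus with Apobec1 and Dppa3, and all 7 H3K27ac peaks were overlapped by H3K4me1. Plin2, which coats lipid droplets, had 10 and 35 peaks (0 and 25 after PBS). Near each of these genes H3K27ac peaks were called under LPS only, while H3K4me1 was present in both libraries. The PBS H3K27ac list held 52 autosomal peaks, near 97 genes (0.466% of all genes). Absence of a called H3K27ac peak after PBS was therefore the rule for genes in general.

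The 10 H3K27ac peaks of Plin2 lay between 0.821 and 44.3 kb from its TSS, 8 of them upstream, and 6 were overlapped by H3K4me1. The strongest (chr4:86689362-86689805), 19.4 kb upstream, ranked 60 of 4120 with a fold enrichment of 9.92 and 16 fragments at the summit. Fth1, the ferritin heavy chain that stores iron, had 9 and 33 peaks (0 and 24 after PBS), and Incenp was in the same locus. Ncoa3, a coactivator of nuclear receptors, had 5 and 48 peaks, and as many H3K4me1 peaks after PBS. Mbnl1, a splicing regulator, had 5 and 35 (45 H3K4me1 peaks after PBS). Susd6 had 5 and 35 as well, and the strongest peak of its window, in an intron of the gene, ranked 14 of 4120 with a fold enrichment of 12.4.

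Fgd3, an exchange factor for Cdc42, had 5 and 32 peaks and shared its locus with Card19, Susd3 and Bicd2. Tmco6 had 7 and 31 in a locus with Cd14, the co-receptor that hands LPS to TLR4, which had 7 and 30. E230025N22Rik, Ndufa2 and Ik were also in this locus on chromosome 18, where 9 protein-coding TSSs fell in the window of Tmco6. Pik3ap1, an adaptor of PI3K signalling, and Slc23a2, a vitamin C transporter, each had 5 and 31. Osbpl8, an oxysterol-binding protein, had 4 and 50 peaks, and 57 H3K4me1 peaks after PBS.

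Across these 12 loci H3K27ac counts ranged from 4 to 10 for the leading gene. The 5′ end of the leading gene had an H3K27ac peak within 1000 bp only at Plin2. The strongest peak in the window of Fgd3 lay 319 bp from another annotated TSS of Fgd3, 21610 bp from its 5′ end. The highest H3K27ac count of any gene, 15, belonged to Mcl1, an anti-apoptotic BCL2 family member, which had 28 H3K4me1 peaks and is named here because its count was seen. Its H3K27ac peaks had fold enrichments of 3.71 to 6.54 and 5 to 13 fragments at the summit, and 7 of 15 were overlapped by H3K4me1. Members just inside the limits were Slamf9 and Fam111a, each with 3 and 25 peaks, and just outside lay Vsig8, with 3 and 24, and Nrp2, with 2 and 35.

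Genes with much H3K27ac and little H3K4me1 were few. By the limits set for this class, an H3K27ac count at or above the 95th percentile (2 peaks) and an H3K4me1 count at or below the 25th percentile (0 peaks), 4 genes remained (0.0192% of all genes), in 4 loci. Chrm1, Dlgap1, Muc3 and Htr5a encode a muscarinic receptor, a postsynaptic scaffold, a mucin and a serotonin receptor. Each had 2 H3K27ac peaks after LPS and no peak of either mark after PBS. None of the 4 had H3K27ac at its own TSS. Both peaks near Chrm1 and both near Muc3 were promoter peaks of neighbouring genes. The strongest peak near Htr5a was intergenic, and the nearest annotated TSS was that of Paxip1.

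Wider limits, chosen after the values were seen, took genes with at least 3 H3K27ac peaks (98th percentile) and at most 3 H3K4me1 peaks (the median). They gave 42 genes (0.202% of all genes) in 18 loci, none of them among the 4 above. Some peaks were shared with those 4, however. The strongest peak near Chrm1 was also the strongest near 1700092M07Rik, and the strongest near Htr5a was also counted near Paxip1. The median member had 3 H3K27ac and 2 H3K4me1 peaks, 5 protein-coding TSSs in its window (quartiles 4 and 6) and a gene length of 13.6 kb. All genes together had medians of 3 TSSs (1 and 4) and 17.6 kb, and genes rich in both marks 2 TSSs (1 and 4) and 25.1 kb. An H3K27ac peak lay at the own TSS of 14 of the 42 (33.3%), and an H3K4me1 peak at that of 5 (11.9%).

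Gm11127, in the major histocompatibility region of chromosome 17, had 8 H3K27ac and 3 H3K4me1 peaks (0 and 4 after PBS). Class I genes of this region are closely related copies, so fragments could be placed on the wrong copy and these counts are uncertain. The next locus held Rundc3a and Slc25a39, with 6 and 1 peaks each, Grn and Fam171a2, with 6 and 2, and Itga2b, with 5 and 2. Grn encodes progranulin, a lysosomal glycoprotein, and Slc25a39 a mitochondrial glutathione carrier. Of the 6 H3K27ac peaks of Grn, 5 lay between 0.896 kb upstream and 2.02 kb downstream of its TSS, and none was overlapped by H3K4me1, whose nearest summit was 6.30 kb away.

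The third locus held the interferon-induced genes Oasl1, with 4 and 1 peaks (0 and 3 after PBS), and Oasl2, with 4 and 2, beside 4930519G04Rik, Gm9936 and 2210016L21Rik. Oasl1 and Oasl2 are related in sequence, so reads could be split between them. Its 4 H3K27ac peaks lay 24.1 to 26 kb upstream of Oasl1. The fourth locus held 1700092M07Rik and Stx5a, a Golgi SNARE, with 4 and 3 peaks, and Slc3a2, the CD98 heavy chain, and Wdr74. Clcn7, a lysosomal chloride transporter, shared 4 and 3 peaks with Ccdc154, and Slfn2 had 4 and 3 in a locus with Slfn9, where the strongest peak lay at a promoter of Slfn8.

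Paxip1, a subunit of MLL3 and MLL4 complexes, had 3 H3K27ac peaks and 1 H3K4me1 peak. Its promoter peak, 0.164 kb from the TSS, ranked 2 of 4120 with 38 fragments at the summit, and the gene also had 1 H3K27ac peak after PBS. Ino80, the ATPase of a chromatin remodeller, had 3 and 1, with all 3 H3K27ac peaks at its own promoter. Ipp, Tmem69 and Gpbp1l1 had 3 and 1 each in a shared locus, and so did Fbxo17, where the strongest peak was at the promoter of Nfkbib, an inhibitor of NF-κB. At the edge of the wider limits, Ly6g6f and Abhd16a had 3 and 3 peaks, and 18 genes with at least 3 H3K27ac peaks had 4 H3K4me1 peaks.

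Genes rich in H3K4me1 with no H3K27ac were the most numerous class, under a lower H3K4me1 limit than the class rich in both marks. With 0 H3K27ac peaks and an H3K4me1 count at or above the 95th percentile (19 peaks), they were 418 genes (2.01% of all genes) in 287 loci. They made up 37.9% of the 1103 genes with at least 19 H3K4me1 peaks, while 15889 of all 20807 genes had no H3K27ac peak. Genes rich in H3K4me1 thus lacked H3K27ac less often than genes in general. With at least 25 H3K4me1 peaks, 144 of 420 genes (34.3%) had no H3K27ac, beside the 101 rich in both marks. In the windows of the 418 genes H3K4me1 covered a median 13.1 kb (quartiles 10.5 and 16.6 kb). The median was 16 kb (13.4 and 18.8 kb) around genes rich in both marks and 1.21 kb around all genes. The median gene length of the 418 was 40.8 kb (quartiles 14.3 and 91.7 kb). H3K4me1 was at the own TSS in 238 of the 418 (56.9%). The nearest H3K27ac summit was a median 220 kb away, and for 312 genes (74.6%) it was beyond 100 kb, beside 83% of all 15889 genes with no H3K27ac peak in the window. The choice of genes with no peak within 50 kb itself set this distance above 50 kb.

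Tpd52 had the highest H3K4me1 count of all genes, 54 after LPS and 42 after PBS, and its nearest H3K27ac summit was 812 kb away. Tec, a tyrosine kinase of immune cells, had 51 (38 after PBS), with Slain2 in the same locus. Cd9, a tetraspanin, had 45 (31) beside Vwf, and the receptor Notch2 had 44 (51). Mrc1, the macrophage mannose receptor, had 43 (39), with Tmem236 in its locus, and its nearest H3K27ac summit was 536 kb away. These genes had H3K4me1 peaks in both treatments and H3K27ac peaks in neither. The class itself set the LPS H3K27ac count to 0, and only 0.466% of all genes had a PBS H3K27ac peak.

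Cab39, a scaffold of the kinase LKB1, had 41 (33 after PBS), and its nearest H3K27ac summit, at 50850 bp, was only just outside the window. Csf1r, the M-CSF receptor that macrophages depend on, had 38 (32). Apbb1ip, an activator of integrins, had 38 (36), and was alone among the leading genes of these 10 loci in having an H3K27ac peak after PBS. Tet3, which oxidises 5-methylcytosine, had 38 (31), and Cmtm7 had 38 (35), with Cmtm6 beside it. At the lower edge, Eif2d and Sdhc had 19 peaks each and Il1rl1, just outside, had 18. A further 287 genes with at least 19 H3K4me1 peaks fell outside the class by a single H3K27ac peak.

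**Figure D3:**
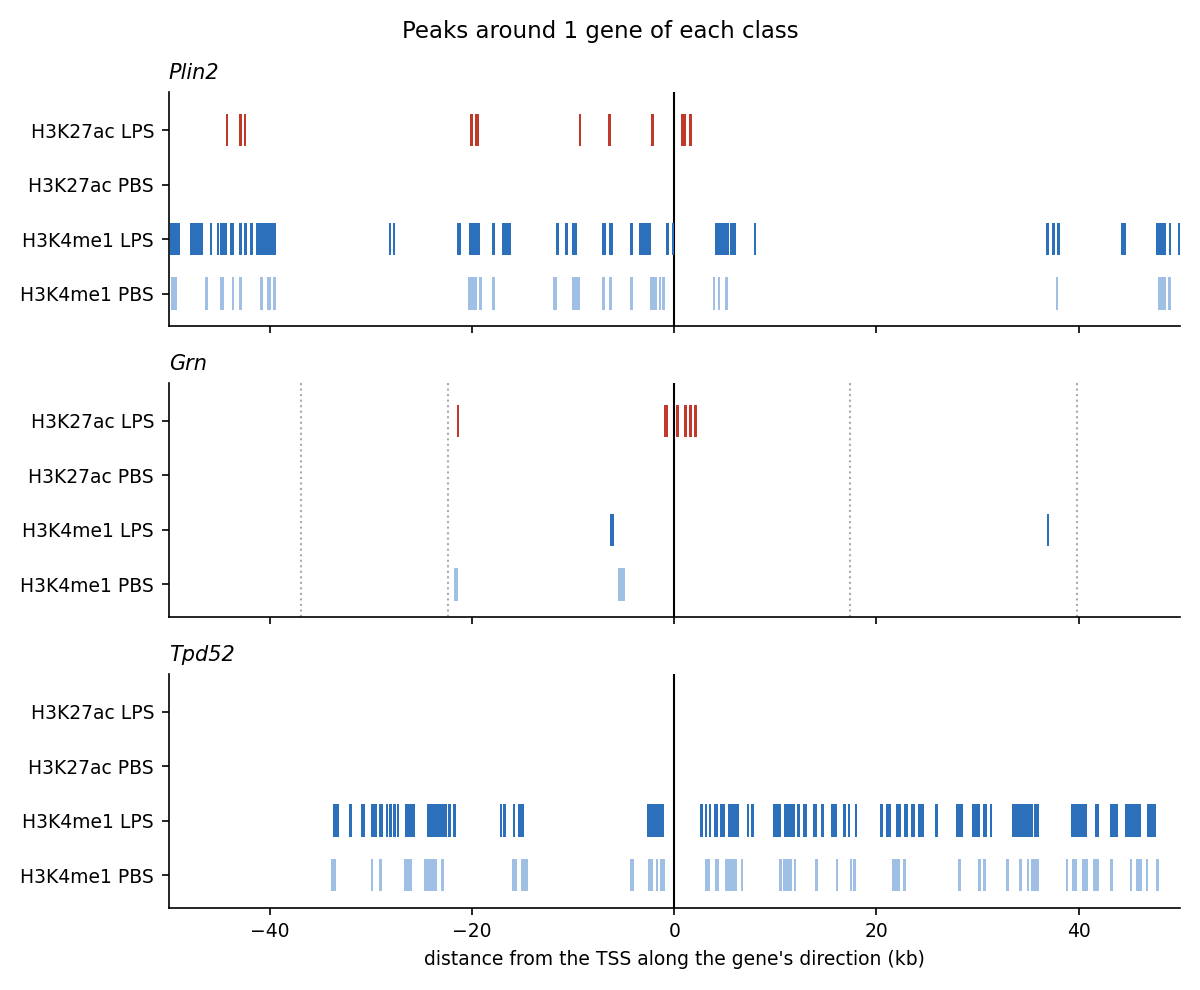
Peaks within 50 kb of the TSS of Plin2, Grn and Tpd52, 1 gene of each class, in the 4 peak lists, with distance from the TSS along the direction of the gene on the x axis (kb). Bars are peaks, drawn at least 0.25 kb wide, the solid line is the gene's TSS and dotted lines are the TSSs of other protein-coding genes. Plin2 has 10 H3K27ac and 35 H3K4me1 peaks after LPS, Grn 6 and 2, and Tpd52 0 and 54.

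The peaks in these windows, each counted once, differed between the classes in position. The windows of genes rich in both marks held 301 H3K27ac peaks, of which 19.3% (15.2 to 24.1) were promoter peaks, against 72.7% (61.0 to 82.0) of the 66 peaks near genes with little H3K4me1. An H3K4me1 peak overlapped 53.8% (48.2 to 59.4) of the 301 and 7.58% (3.28 to 16.5) of the 66, a difference that the choice of genes by H3K4me1 count favours. Among distal peaks alone the shares were 63.4% (57.2 to 69.2) of 243 and 11.1% (3.1 to 32.8) of 18. The median distance from an H3K27ac summit to the nearest H3K4me1 summit was 0.433 kb near genes rich in both marks and 5.86 kb near genes with little H3K4me1.

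H3K27ac peaks in both kinds of window were narrow and of like height. Median widths were 168 and 156.5 bp and median fold enrichments 5.69 and 5.99, beside 151 bp and 5.39 for the whole list. The sequence within 100 bases of the summit had a median GC content of 49.8% and 2 CpGs near genes rich in both marks, 54.5% and 5 CpGs near genes with little H3K4me1, and 48.8% and 2 CpGs in the whole list. Of the 301 peaks, 15.6% were in the strongest 10% of the list, and of the 66, 16.7% were.

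**Figure D4:**
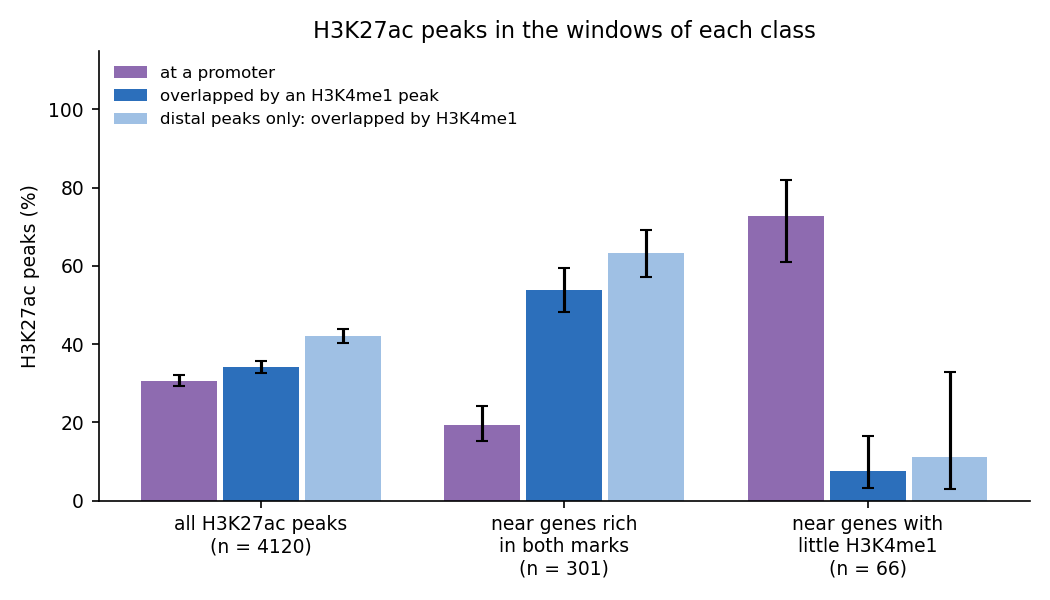
Share of H3K27ac peaks (y axis, percent, with 95% Wilson intervals) that lie within 1000 bp of a protein-coding TSS (purple), are overlapped by an H3K4me1 peak (dark blue), or, of distal peaks only, are overlapped by an H3K4me1 peak (light blue), after LPS. Near genes rich in both marks 19.3% of 301 peaks are at promoters and 53.8% are overlapped, and near genes with little H3K4me1 72.7% of 66 are at promoters and 7.58% are overlapped.

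H3K4me1 peaks looked alike between the classes rich in H3K4me1 with and without H3K27ac, which were both chosen for high H3K4me1 counts. The windows of the 418 genes with no H3K27ac held 7309 H3K4me1 peaks with a median width of 384 bp and a median fold enrichment of 6.26. The windows of the genes rich in both marks held 2115 with a median of 376 bp and 6.19. Both sets had a median GC content of 48.8% around the summit and a median of 18 fragments there. An H3K4me1 peak of the PBS library overlapped 65.9% (64.8 to 66.9) of the former and 67.2% (65.2 to 69.2) of the latter, beside 61.5% (61.1 to 61.8) of the whole list. An H3K27ac peak overlapped 7.14% (6.12 to 8.32) of the 2115. The 45 H3K4me1 peaks near genes rich in H3K27ac with little H3K4me1 differed. Their medians were 264 bp, a fold enrichment of 5.08 and 14 fragments, and PBS H3K4me1 overlapped 24.4% (14.2 to 38.7) of them.

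Over promoter and distal summits together, motif letters were also found at similar shares. AP-1 (TGANTCA) occurred in 9.77% (9.11 to 10.5) of the same windows around H3K4me1 summits near genes with no H3K27ac, in 10.5% (9.31 to 11.9) of those near genes rich in both marks and in 9.95% (9.73 to 10.2) of all 71661. PU.1 (GAGGAAGT) occurred in 3.95% (3.53 to 4.43), 3.78% (3.05 to 4.68) and 4.26% (4.11 to 4.41). Around H3K27ac summits AP-1 occurred in 5.65% (3.56 to 8.86) of the 301 windows near genes rich in both marks and in 6.43% (5.72 to 7.22) of all 4120, and the NF-κB consensus in 3.99% (2.29 to 6.84) and 3.03% (2.55 to 3.6). Among the 66 near genes with little H3K4me1, 5 held AP-1 and 1 held the NF-κB consensus. A match says only that the letters are present.

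H3K27ac was called near genes of every list below except the fibroblast markers, in differing shares. Beside 23.6% of all genes, an H3K27ac peak lay within 50 kb of 26 of 44 primary LPS response genes (59.1%, 44.4 to 72.3), 18 of 31 late or interferon response genes (58.1%, 40.8 to 73.6), 19 of 33 macrophage identity genes (57.6%, 40.8 to 72.8) and 19 of 35 genes of Toll-like receptor signalling (54.3%, 38.2 to 69.5). The share was 19 of 27 for lysosome and phagocytosis genes (70.4%, 51.5 to 84.1), and 31 of 75 for cytosolic ribosomal protein genes (41.3%, 30.9 to 52.6). T cell markers had H3K27ac in 6 of 12 (50%, 25.4 to 74.6), a share that fell to 8.33% at −log10 q of at least 5. Genes of other tissues had it in 4 of 30 (13.3%, 5.31 to 29.7) and fibroblast markers in 0 of 10 (upper bound 27.8%). The mean H3K27ac count was 1.67 for macrophage identity, 0.533 for ribosomal protein genes, 0.167 for other tissues and 0.381 for all genes. The median H3K4me1 count was 19 for macrophage identity, 15 for lysosome and phagocytosis, 11 for the primary and 8 for the late response, 9 for Toll-like receptor signalling, 1 for other tissues and 3 for all genes. Some genes, such as Ctsb and Mitf, stand in more than 1 list, and neighbouring genes share peaks, so the list shares are not separate results. The 44 primary response genes lay in 40 loci and the 33 macrophage identity genes in 31.

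The primary response genes with the most H3K27ac peaks were Klf6, a zinc finger factor, with 6 H3K27ac and 21 H3K4me1 peaks, Tnfaip3, which encodes the NF-κB inhibitor A20, with 6 and 11, the chemokine genes Ccl3 with 5 and 24 and Ccl4 with 5 and 19, and Nfkbid with 4 and 9. Ccl3 and Ccl4 shared all 5 H3K27ac peaks. Tyrobp, a macrophage identity gene close to Nfkbid, had the same counts as Nfkbid. The TSS of Tyrobp had 2 H3K27ac peaks and that of Nfkbid 0. Near Tnfaip3, 4 of 6 H3K27ac peaks lay 45.8 to 49.2 kb upstream. Genes of the same list with no H3K27ac included the chemokine genes Ccl7, with 34 H3K4me1 peaks, and Ccl2, with 31, and Nfkbiz, with 14. None of the 44 was rich in both marks by the limits, beside 0.485% of all genes, and 2 were in the class without H3K27ac, beside 2.01%. A list of 44 genes is too short for these counts to set it apart from all genes. The H3K4me1 count ranged from 0 to 34 among primary response genes without H3K27ac and from 6 to 40 among those with it.

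In the late or interferon list, Oasl1 (4 and 1), Ifit2 (3 and 23), Il15 (3 and 21), Acod1 (2 and 20), which encodes the enzyme that makes itaconate, and Rsad2 (2 and 13) led. Usp18 (11 H3K4me1 peaks), Ccl12 (10) and Irf1 (9) had no H3K27ac peak. Among macrophage identity genes, Ctsb, a lysosomal protease, had 9 and 20, Spi1, which encodes PU.1, 8 and 16, Cd14 7 and 30, Mitf 4 and 30 and Tyrobp, an adaptor of activating receptors, 4 and 9. Of the 8 H3K27ac peaks of Spi1, 6 were overlapped by H3K4me1, and the nearest lay 0.144 kb from its TSS. Mrc1, Csf1r and Irf8, an interferon regulatory factor of myeloid cells, had 43, 38 and 33 H3K4me1 peaks and no H3K27ac.

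Among Toll-like receptor genes, Cd14, Ly96, which encodes MD-2 (4 and 23), Tlr1 (4 and 12), Peli1 (4 and 8) and Map3k8 (2 and 21) had the most H3K27ac, and Tlr9, Ticam2 and Irak3 had 28, 23 and 21 H3K4me1 peaks and none. Tlr4 itself had 1 and 29. In the lysosome list Ctsb, Grn (6 and 2), Mitf, Atp6v1a, a subunit of the proton pump (4 and 26), and Lipa, the lysosomal acid lipase (3 and 23), led, and Psap, Tfeb and Hexa had 29, 18 and 13 H3K4me1 peaks and no H3K27ac. Of the enzymes and readers of both marks, 7 of 19 had H3K27ac (36.8%), led by Kat2a with 7 and 14, Kmt2b with 2 and 4 and Hdac3 with 1 and 27, while Kat2b and Hdac1 had 15 and 11 H3K4me1 peaks and none. Rpl23 had 6 and 17 and no other ribosomal protein gene had more than 2 H3K27ac peaks.

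**Figure D5:**
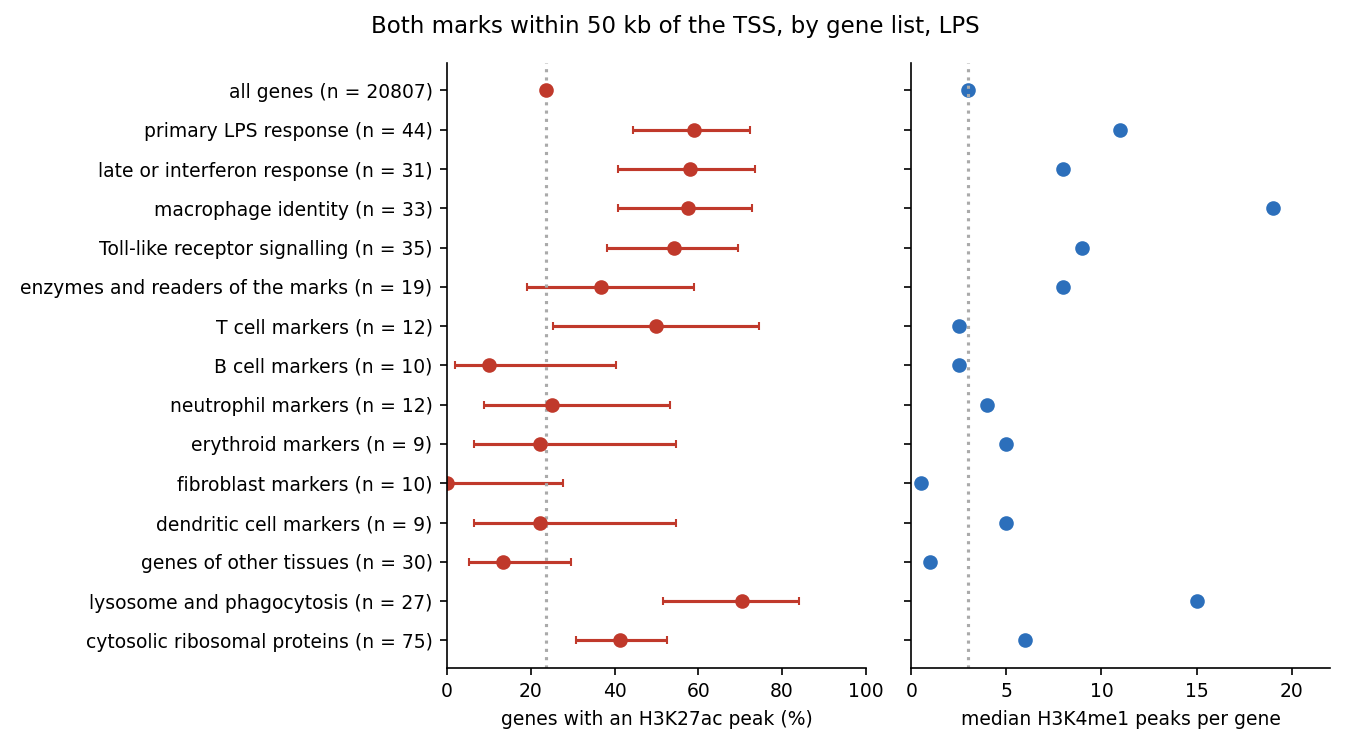
Share of each gene list with an H3K27ac peak within 50 kb of the TSS (left, percent, with 95% Wilson intervals) and median number of H3K4me1 peaks (right) after LPS, with all genes at the top and as dotted lines. The macrophage, primary and late response, Toll-like receptor and lysosome lists lie between 54.3% and 70.4%. T cell markers lie at 50%, ribosomal protein genes at 41.3% and genes of other tissues at 13.3%.

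The labelled cell type was checked against its markers. All 33 macrophage identity genes had H3K4me1, from 4 to 43 peaks, beside 71.8% of all genes with at least 1 peak. Of the 10 fibroblast markers, 5 had H3K4me1, with 1 to 10 peaks, and Col1a2, Col3a1, Dcn, Lum and Twist1 had neither mark. H3K4me1 also lay near 11 of 12 T cell, 9 of 10 B cell, 11 of 12 neutrophil, 6 of 9 erythroid and 9 of 9 dendritic cell markers, with median counts of 2.5, 2.5, 4, 5 and 5. The median was 19 for macrophage identity and 3 for all genes. Presence of an H3K4me1 peak alone thus did not separate macrophage markers from most markers of other blood cells. Of the markers of other blood cells, 6 of 12 for T cells, 1 of 10 for B cells, 3 of 12 for neutrophils, 2 of 9 for erythroid cells and 2 of 9 for dendritic cells had H3K27ac. For T cells these were Il7r (2 and 17), Cd4 (1 and 21), Themis (1 and 0) and the neighbours Cd3e, Cd3d and Cd3g, with 1 and 1 each. Over all genes the share with H3K27ac was 23.6%, and the neutrophil (25%), erythroid (22.2%) and dendritic cell (22.2%) shares were close to it. Peaks within 50 kb need not belong to the gene counted, and whether other cells contributed was not tested.

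Tnf, Il1b, Il6 and Il10, cytokine genes of the LPS response, differed in both marks. Tnf had 2 H3K27ac peaks, 7.88 and 8.53 kb upstream of its TSS (chr17:35209731-35210103 and chr17:35210480-35210787), with 8 and 11 fragments at the summit and neither overlapped by an H3K4me1 peak, and 15 H3K4me1 peaks in its window after either treatment. Il1b had 2 H3K27ac peaks, 9.30 and 10.2 kb upstream, 1 of them overlapped, and 6 H3K4me1 peaks (4 after PBS). Il10 had 12 H3K4me1 peaks (14 after PBS) and no H3K27ac, with the nearest summit 257 kb away. Il6 had no peak of either mark after LPS and 2 H3K4me1 peaks after PBS.

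In the PBS libraries, which the classes did not use, the LPS and PBS H3K4me1 counts over all genes had a rank correlation of 0.93. The median count was 29 after LPS and 25 after PBS for genes rich in both marks, 2 and 3 for genes with little H3K4me1, and 22 and 20 for genes with no H3K27ac. Of the 101 genes rich in both marks, 97 (96.0%) were at or above the 95th percentile of the PBS list, 17 peaks, and 68 had fewer H3K4me1 peaks after PBS, 22 more and 11 the same number. Of the 418 genes with no H3K27ac, 312 (74.6%) reached 17 peaks, and 307 had fewer after PBS, 82 more and 29 the same number. The 101 needed at least 25 H3K4me1 peaks after LPS and the 418 at least 19, which favours a higher share for the 101. Over all 20807 genes, 9273 had fewer after PBS, 3527 more and 8007 the same number, and the choice of genes by a high LPS count favours fewer after PBS. The PBS list was shorter in all, with 63640 autosomal peaks. A PBS H3K27ac peak lay near 97 genes (0.466%), among them 3 of the 101, 1 of the 42 and 7 of the 418.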

How the data were processed

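CUT&RUN peaks of 1 library per mark and treatment were analysed. According to the methods, the authors trimmed reads, aligned them to GRCm38 with Bowtie2 2.4.4, removed blacklisted regions and called peaks per library with MACS2 2.2.7.1 in the nf-core pipeline. Whether IgG served as the control is not given in the sources used here. The deposited fold enrichment is a ratio at the summit to local background, and the deposited −log10 p-value and −log10 q-value are those of the peak caller. Values were ranked within a list only.

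Peaks were counted around GENCODE M21 TSSs, another release than the authors', with pandas 2.3.3 and numpy 2.4.6. Counting was tested on simulated data. Fragments at each summit were recovered from fold enrichment and p, which returned the deposited −log10 p within 0.005 for 100% of peaks. This match does not check the estimated library totals. Intervals are 95% Wilson intervals (scipy 1.17.1) and cover counting error only. Sequences came from the RefSeq copy of GRCm38.

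Members, lists and limits were chosen with earlier results of these data known. Named were the first 12, 10 and 10 loci of the classes by count, up to 5 list members with the most H3K27ac and 3 with none, 4 cytokine genes and genes at a limit. For the large ribosomal list and the blood-cell marker lists, a summary stands in place of some names, and a few items that the rule selects are not reported here. Mx2 and Clec7a were not found as protein-coding genes, and 8 listed genes lie outside the autosomes. The wider class and a 100 kb limit for H3K27ac were added after the values were seen.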

Additional observations from a re-analysis of the deposited data

Results flagged for a closer look

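PBS H3K27ac peaks, which took no part in the classes, were present near genes classed as having H3K4me1 and no H3K27ac. This applied to 7 of the 418 genes (1.67%, beside 0.466% of all genes), among them Sdhc, Prkcd, Apbb1ip, Suds3 and Taok3, through 4 distinct peaks of the 52 in the PBS list. The strongest of them ranked 1 in that list, with 14 fragments at the summit. These peaks are listed because they lie outside the data used for the classes.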

How the results depend on the processing

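No paired analysis was possible because each mark and treatment had 1 library. Values are genes, then loci. Genes rich in both marks, 101 in 66 loci, became 52 in 34 at −log10 q of at least 5, 40 in 27 with the H3K4me1 list cut to 4120 peaks and 29 in 21 at stricter limits, and gave 34 loci at 100 kb. Genes rich in H3K4me1 with no H3K27ac, 418 in 287, became 816 in 503 at −log10 q of at least 5, 262 in 142 at 100 kb and 71 in 60 at stricter limits, gave 460 loci at 25 kb, and kept 312 genes when no H3K27ac peak was allowed within 100 kb. The class with 2 H3K27ac and 0 H3K4me1 peaks, 4 in 4, became 249 in 183 at 25 kb, 14 in 7 at 100 kb, 129 in 61 at −log10 q of at least 5, 1202 in 394 with the cut list, 2 in 2 with peaks within 1000 bp merged, 0 in 0 at stricter limits, 230 in 150 without promoter peaks, and 42 at the wider limits. The wider class, 42 in 18, became 68 in 41 at 25 kb, 17 in 8 at 100 kb, 78 in 28 at −log10 q of at least 5, 429 in 161 with the cut list and 76 in 43 with merged peaks, and gave 28 loci with any annotated transcript start. Members differed too: of the 101 genes, 41 were shared at 25 kb and 30 at 100 kb, and of the 42, 15 and 6. The share of H3K27ac peaks overlapped by H3K4me1 moved from 53.8% to 45.9% at −log10 q of at least 5 and to 69.4% with peaks extended by 500 bp, and near genes with little H3K4me1 from 7.58% to 0% and 16.7%. List shares with H3K27ac fell at −log10 q of at least 5 to 34.1% for the primary response, 27.3% for macrophage identity, 29.6% for lysosome and 3.33% for other tissues, beside 9.63% of all genes. At 25 kb lysosome had 48.1% and other tissues 3.33%, and at 100 kb the primary response had 75%. In all, 55 values of these counts and shares stayed within the limits set for no change and 51 moved, and the cause was not tested.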
